A study of Homo sapiens with 2 samples.

Results

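Broad 3' UTR peaks are the stretches of 600 bp or more that an m6A antibody recovered above input in the 3' untranslated regions of transcripts. They were selected on the label and width of each peak in the authors' list for HCCLM3, a metastatic human liver cancer line. Both values come from the deposited list, which puts 5749 of its 39801 peaks in 3' UTRs. Of these, 1997 were 600 bp or wider and 3752 were narrower. Wild-type cells gave 1 m6A-RIP library, from RNA captured by the antibody, and 1 m6A-Input library, from RNA without capture. The cells carry no stated treatment, and there is 1 cell line with no replicate. The RNA was total RNA taken up with an RIP kit and made into stranded libraries. Every value below therefore describes these libraries, with no test between conditions, and positions are on hg38.

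N6-methyladenosine (m6A) is a methyl mark on adenosines inside mRNA. A nuclear complex built on METTL3 and METTL14 writes it, demethylases such as FTO and ALKBH5 can remove it, and reader proteins such as YTHDF2 bind it and change how long the mRNA lasts or how well it is translated. The mark favours long last exons, around the stop codon and in the 3' UTR, where several methylated adenosines often lie close together. The method reads fragments of RNA rather than single bases, so neighbouring marks can merge into 1 wide peak.

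The mark lies within a short consensus of which GGACT and GGACA, in DNA letters, are common forms. RefSeq sequence used here, in windows of 300 bases around transcript starts on GRCh38.p14, happened to cover the summit of 3 broad peaks, where starts of non-coding genes lie inside the 3' UTR. The sites are shown because they are at the point of highest signal. Each runs 5' to 3' on the strand of the gene named, and capitals mark the form of the consensus nearest the summit.
USP6NL (chr10:11463540-11463564, minus strand): cgggtccacaGGACAgttccaggca
TENM1 (chrX:124380724-124380748, minus strand): gcccaggcctGGACTaaggaacaaa
SLC2A4RG (chr20:63743804-63743828, plus strand): cggccacagagaggcaggacggcag
USP6NL encodes a GTPase-activating protein for Rab proteins, and the middle base of its GGACA lay 2 bases downstream of the summit of a 1599 bp peak with a fold of 10.6. TENM1 encodes a teneurin, a cell-surface protein, and the middle base of its GGACT lay 10 bases downstream of the summit of a 722 bp peak with a fold of 6.59. The window at SLC2A4RG, whose 688 bp peak had a fold of 5.26, held neither form on either strand, and the bases shown are centred on its summit. That summit also lay in the span of ZBTB46. The USP6NL window held GGACA at 2 places on the strand of the gene, the TENM1 window held each form at 2 places, and on the opposite strand the TENM1 window held GGACA at 1 place. Of 34943 such windows genome-wide, 25.3% held GGACT on the strand of their own gene and 44.1% on either strand, and 25.4% and 43.8% held GGACA. The 2 forms cannot overlap each other on the same strand, and a match is only a description of the letters.

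The broad peaks had a median width of 861 bp, with quartiles of 705 and 1136 bp. Widths from 600 up to 800 bp were the commonest, with 844 peaks, and 462 peaks measured from 800 up to 1000 bp, 484 from 1000 up to 1500 bp, 147 from 1500 up to 2000 bp and 60 at least 2000 bp. The broad peaks covered 1973 kb together, or 56.7% of the bases under all 3' UTR peaks. The cut at 600 bp falls in a smooth decline of widths, and 5 peaks were exactly 600 bp wide and 9 were 599 bp. Just inside it, EIF2B1, a subunit of a translation factor complex, had a fold of 4.30, and ANKRD33B had 3.71 on 8 fragments. A peak of 600 bp on chromosome 17, in no coding gene of the table used, had 3.89 on 6 fragments. Just outside it stood GMEB2 (9.21), the galactosyltransferase gene B4GALT5 (3.46) and ING5 (8.28), a reader of histone methylation. The proto-oncogene MYC also stood at 599 bp and so is not among the broad peaks, with a fold of 2.0 over an input level of 55.0.

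**Figure D1:**
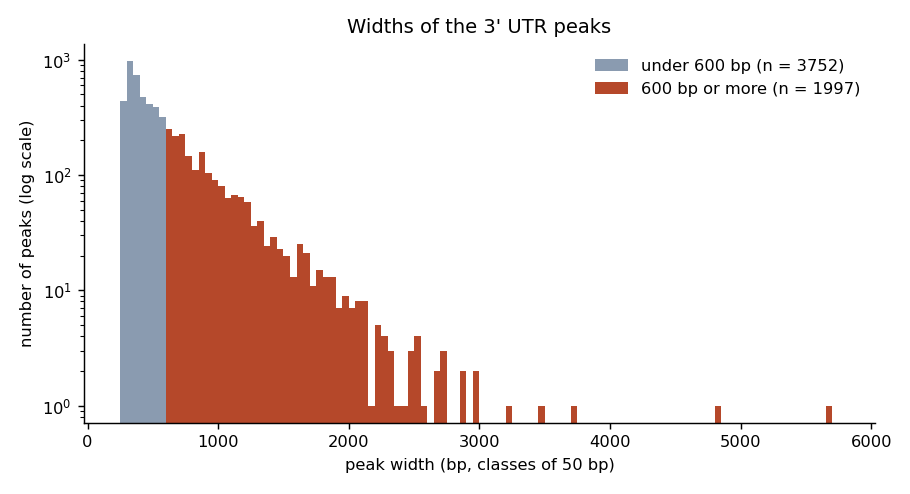
Number of 3' UTR peaks (log scale) by width in classes of 50 bp, split at the 600 bp cut. The 1997 broad peaks continue the decline of the 3752 narrower ones and reach 5675 bp.

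Broad peaks made up a larger share of 3' UTR peaks than of peaks at promoters, in other exons, in introns or between genes. In 3' UTRs 34.7% of peaks were broad (95% exact binomial interval 33.5 to 36.0), against 29.3% in 5' UTRs (25 to 33.7, an interval that overlaps that of 3' UTRs), 25.4% at promoters, 23.9% in other exons, 15.5% between genes and 12.1% in introns (11.6 to 12.6). These intervals cover counting error only. Of the 7873 broad peaks under all labels, 25.4% were in 3' UTRs. Depth differed between the labels too, and its part in the shares was not tested. Broad peaks rested on a median of 48 RIP fragments in 3' UTRs, 50 in 5' UTRs and 39 at promoters. The medians were 45 in other exons, 10 between genes and 11 in introns.

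Signal was higher in broad than in narrow 3' UTR peaks, and so was depth. Fold, the linear enrichment over input that the authors' peak caller gave for a summit, had a median of 5.10 in broad peaks (quartiles 3.71 and 7.11) and 3.74 in narrow ones (2.81 and 5.15), a ratio of 1.36. Width and fold come from the same libraries, so the ratio is a description. RIP fragments under the summit, recovered from fold and p-value, had medians of 48 and 26, and input levels, in fragments scaled to the input library, medians of 5.0 and 3.0. Within classes of similar depth the broad medians were higher too: 3.71 against 2.86 for summits with 2 to 12 RIP fragments, 4.98 against 4.10 with 13 to 25, 5.54 against 4.19 with 26 to 42, 5.74 against 4.22 with 43 to 72 and 5.12 against 3.98 with 73 or more. The share of peaks that were broad went from 14.9% in the shallowest of these classes to 55.0% in the deepest. Among the broad peaks themselves, cut at 600 bp, width was loosely tied to fold and to fragments. Spearman's rho was 0.17 with fold and 0.21 with fragments, and Pearson's r on log10 values 0.15 and 0.22 (n = 1997). Over all 3' UTR peaks, without the cut, rho was 0.40 with both, and r 0.36 with fold and 0.38 with fragments (n = 5749). All points share the same libraries. The part of depth in the width was not tested.

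The caller's q-value was under 0.05 for 1827 of the 1997 broad peaks (91.5%), beside 48.8% of all peaks in the list, and under 1e-5 for 1489 (74.6%), beside 25.8%. Both width and q-value grow from the same reads, so nothing further is read from these counts. In narrow 3' UTR peaks the shares were 71.8% and 42.4%. A q-value of 1 was given to 34 broad peaks. At most 3 fragments lay under 8 of the broad summits, those of ZNF211, PRDM11, TLN2, MDM1, ZNF528, CYTH4, OXNAD1 and ZNF117. Their folds ran from 1.83 (0.927 to 4.52, in PRDM11 and ZNF528) to 2.35 (1.12 to 5.32), and their order is not settled at this depth.

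A gene was found for 1953 of the broad peaks by asking which gene's span holds the summit. The deposited table names the gene with the nearest transcript start, and that gene held the summit for 961 broad peaks. For 992 others a single coding gene there was taken, while 31 peaks with several coding genes and 13 with none in the table were left without a gene. Among the 961, 100 summits also lay in a further coding gene, and for 34 of the peaks the gene so named is not coding. The 1953 peaks fell in 1828 genes, of which 1794 are protein-coding, or 8.95% of 20037 protein-coding genes and 39.8% of the 4506 with any 3' UTR peak. In 1352 of the 1828 genes the broad peak was the sole 3' UTR peak, and 403 held narrow 3' UTR peaks as well. The median genomic span was 40.9 kb for coding genes with a broad peak, 40.6 kb for those with narrow 3' UTR peaks alone and 24.1 kb for all coding genes.

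The 10 widest stretches lay in genes of varied function. The widest, 5675 bp, was in ZNF469, a zinc finger gene needed for the cornea's collagen, on chromosome 16 from 88434512 to 88440186, and its fold was 4.57 (95% Poisson interval 3.69 to 5.59, 91 RIP fragments). ZBTB38, a transcription factor that binds methylated DNA, held 4817 bp (chromosome 3, 141443112 to 141447928) at a fold of 3.42 (2.76 to 4.19). SH3PXD2A, a scaffold of invadopodia, held 3712 bp on chromosome 10 from 103599838 to 103603549 (4.40, 3.43 to 5.56). GLI2, a transcription factor of the Hedgehog pathway, held 3499 bp on chromosome 2 from 120988959 to 120992457 (5.37, 4.10 to 6.91).

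The other 6 of the 10 widest measured 2729 to 3223 bp. A peak of 3223 bp on chromosome 7 (6.63, 5.23 to 8.30) lay in both URGCP and its read-through gene URGCP-MRPS24 and was given to neither. ZC3H4, which restrains non-coding transcription, had 2987 bp (5.41), RBM12B 2978 bp (3.45) and ZNF451, a SUMO ligase, 2871 bp (6.97), with its summit 68566 bp before the end of the gene. PIP5K1C, a lipid kinase gene, had 2867 bp (6.88), and the transporter gene SLC22A23 had 2729 bp with the highest fold of the 10 (8.71, 7.16 to 10.5). The folds of all 10 lay between 3.42 and 8.71, around the median of the broad class, so the widest peaks were not those of highest fold.

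Wide peaks may take in part of the coding sequence of the last exon, since the label says only that a peak is a 3' UTR peak. Transcript models were not used here, so the coding part was not measured. The distance to the annotated 3' end of the gene bears on it: the peak of ZNF469 began 6241 bp before the end of the gene and stopped 567 bp before it, that of GLI2 ran from 3694 to 196 bp before the end, and that of PIP5K1C from 2886 to 20 bp.

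**Figure D2:**
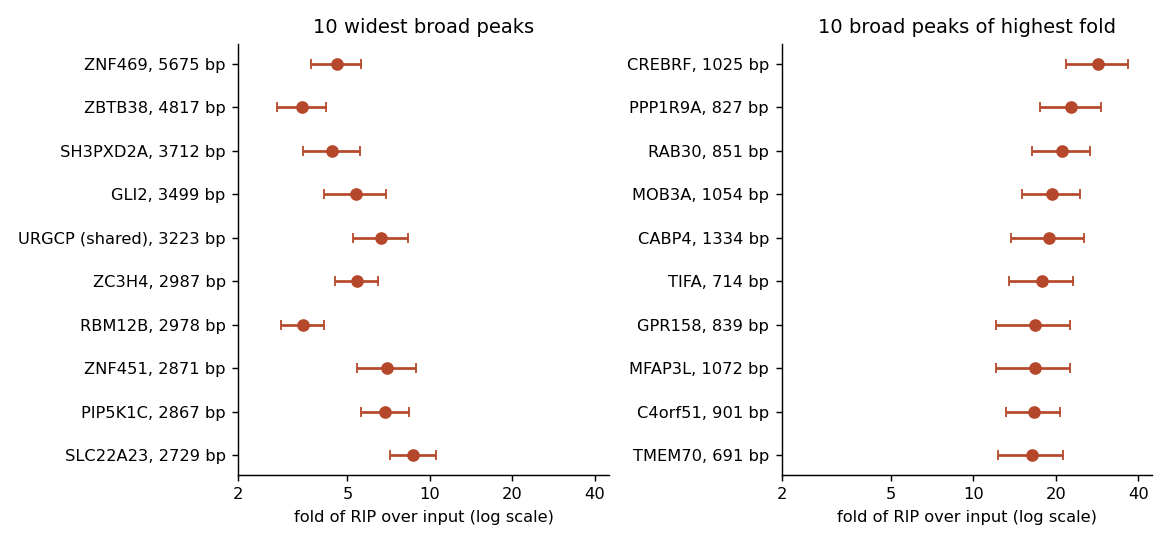
Fold of RIP over input (log scale, points) with 95% Poisson intervals on the RIP fragments (bars), for the 10 widest broad 3' UTR peaks (left) and the 10 of highest fold (right). Folds of the widest lie between 3.42 and 8.71, and those on the right between 16.3 and 28.5. URGCP is marked as shared because its read-through gene holds the summit too.

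The broad peaks of highest fold were of middling width, from 691 to 1334 bp, and had little input RNA. CREBRF, a regulator of CREB3 factors, led with a fold of 28.5 (21.7 to 36.8) over 1025 bp on an input level of 0.296. That level is near the lowest of the list, 0.246, and the interval holds it fixed, so error in the input is not covered. The CREBRF summit lay 47989 bp before the annotated end of the gene and so was far from the last 3' UTR of the annotated span. Which transcript carries the label was not analysed here. PPP1R9A, which encodes the actin-binding scaffold neurabin, reached 22.7 (17.4 to 29.1) between positions 95290106 and 95290932 of chromosome 7. RAB30, a Golgi GTPase gene, had 21.0 (16.3 to 26.7) between 82981552 and 82982402 of chromosome 11, and MOB3A, of the MOB family of kinase partners, had 19.3 (15 to 24.5) between 2072338 and 2073391 of chromosome 19. The interval of each of these 4 overlaps that of its neighbour in the order, so the order is not settled.

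CABP4 (18.9, 13.7 to 25.4), TIFA, an adaptor of innate signalling (17.8, 13.5 to 23.1), and the orphan receptor gene GPR158 (16.8) came next. MFAP3L (16.8), C4orf51 (16.6) and TMEM70, an assembly factor of ATP synthase (16.3), closed the 10. The C4orf51 summit lay also in the zinc finger gene ZNF827. Input levels in these 10 ran from 0.296 to 2.07, below the broad median of 5.0.

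Peaks of highest −log10 p had folds above the broad upper quartile of 7.11, and most had many fragments, though CREBRF had 56. ZNF865 (fold 13.1, 11.2 to 15.3, 162 RIP fragments), ZEB2, a repressor of epithelial genes (15.7, 13.1 to 18.8, 121), and the cadherin gene CDH6 (15, 12.5 to 18.0, 119) were among them. NRP1, a co-receptor of semaphorins and vascular growth factors, had 7.60 (6.56 to 8.76) on 188 fragments over 995 bp. NR2F1, an orphan nuclear receptor gene, had 9.25 (7.87 to 10.8), KRCC1 7.40 (6.38 to 8.54), the kinesin gene KIF13A 14.2 (11.7 to 17.1) and SMG1, a kinase of nonsense-mediated decay, 8.84 (7.50 to 10.4).

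At the other end stood abundant transcripts, named here after their values were seen. SRXN1, an antioxidant reductase gene, had the highest input level of the broad peaks, 108, with a fold of 1.36 (1.19 to 1.54) over 866 bp and a −log10 q of 1.09, short of a q-value of 0.05. The cytoskeletal linker gene PLEC had 1.58 (1.38 to 1.80) over an input of 88.8, the splicing factor gene SRSF4 1.86 (1.63 to 2.12) over 78.0 and the chaperone gene ERP29 1.73 (1.5 to 1.98) over 76.0. Their intervals lie above 1 and far below the broad median of 5.10.

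Several broad peaks could stand in 1 gene. Of the 1828 genes, 109 held 2 broad peaks, 8 held 3, and none held more. The 8 were EVC, ERC1, KIF1B, RNF213, ZNF81, ZNF480, PPP2R1B and MICAL3, in order of the bases covered, and the first 5 are described. In EVC, a cilium gene of Hedgehog signalling, the 3 peaks measured 1874, 607 and 1668 bp, with folds of 6.23 (4.76 to 8.02), 9.58 (7.71 to 11.8) and 5.18 (3.94 to 6.70), and covered 4149 bp. In ERC1, a scaffold of the cell cortex, peaks of 967, 956 and 1628 bp had folds of 8.25 (6.53 to 10.3), 4.42 (2.82 to 6.65) and 4.84 (3.43 to 6.65). They ran almost end to end, with 506 and 282 bp between them.

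In the motor gene KIF1B the broad peaks fell in separate places. A 1644 bp peak with a fold of 3.82 (2.93 to 4.91) had its summit 77442 bp before the end of the gene, and peaks of 1173 and 701 bp, with folds of 2.50 (1.89 to 3.25) and 4.91 (3.7 to 6.39), had theirs 4128 and 3146 bp before it. RNF213, a giant ubiquitin ligase gene, showed the same layout, with a 997 bp peak of fold 4.38 (3.55 to 5.34) at 79087 bp and peaks of 1595 bp (2.79, 2.34 to 3.31) and 624 bp (2.37, 1.56 to 3.48) at 5051 and 2750 bp. ZNF81 held 1807, 676 and 617 bp with folds of 7.60 (5.37 to 10.5), 5.92 (4.2 to 8.14) and 3.13 (1.79 to 5.21). The last of these had 12 fragments and the weakest fold of the 3. Its −log10 q of 0.762 and that of the 624 bp RNF213 peak, 0.605, were both short of a q-value of 0.05.

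Summits of broad peaks lay farther from the 3' end of their genes, at the median, than those of narrow peaks. Strand was known for 1912 broad and 3529 narrow peaks. The summit of a broad peak lay a median of 2556 bp before the annotated gene end (quartiles 1126 and 4956), that of a narrow peak 1870 bp (642 and 4311). Within 1 kb of the end were 22.7% of broad summits (interval 20.8 to 24.6) and 33.1% of narrow ones (31.5 to 34.7), while from 2 to 5 kb were 33.7% and 25.8%. A peak near the end has less room to be wide, and the part of this in the difference was not tested. More than 10 kb from the end were 220 broad summits (11.5%), as for CREBRF and KIF1B, against 11.6% of narrow ones. The farthest of these, in the protocadherin gene PCDH9 and named after its value was seen, lay 922742 bp from the end with a fold of 5.75 (3.59 to 8.81). The downstream edge of 216 broad peaks (11.3%) ran past the annotated end of the gene, by over 100 bp for 115 of them.

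**Figure D3:**
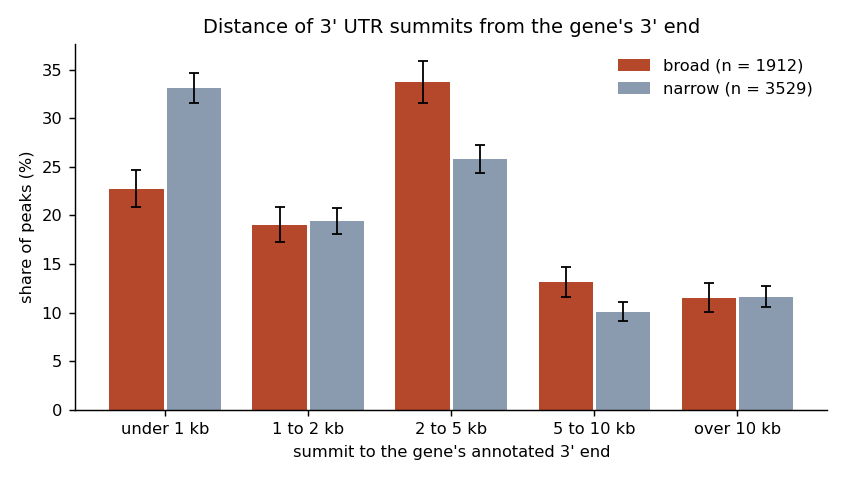
Share of 1912 broad and 3529 narrow 3' UTR peaks (bars, with 95% exact binomial intervals) by the distance from summit to the annotated 3' end of the gene. Broad peaks are fewer under 1 kb (22.7% against 33.1%) and more frequent from 2 to 5 kb (33.7% against 25.8%).

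The summit leaned toward the upstream side, in broad and in narrow peaks. Counted from the 5' edge in the direction of the gene, it stood at a median of 41.1% of the width (quartiles 26.2 and 63.3), and 59.4% of broad summits (57.1 to 61.6) and 62.9% of narrow ones (61.3 to 64.5) were upstream of the middle. Broad peaks differed in their spread, with a larger share of summits near either edge. The upstream 25% of the width held 21.7% of the summits (19.9 to 23.6) and the downstream 25% held 8.89% (7.65 to 10.3), against 8.05% and 3.06% in narrow peaks. The classes were set by width, and narrow peaks ran from 296 bp, the least width in the list, to 599 bp, with a median width of 380 bp. The same share of the width is thus a shorter stretch in a narrow peak. The edge shares cannot be told apart from the width rule, whose part in them was not tested. ZBTB38, with its summit at 2.95% of a 4817 bp peak, and PIP5K1C, at 7.61%, were extremes, while ZNF469 had its summit far downstream at 79.3%. Narrow peaks had a median of 46.3% (36.8 and 53.7). A further peak of the list lay within 500 bp of 375 broad peaks (18.8%) and of 14.9% of narrow 3' UTR peaks.

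Zinc finger transcription factors were the most prominent family. C2H2 zinc finger proteins bind DNA through arrays of fingers coded in a single long last exon, and many silence transposable elements. Of 509 genes with a ZNF symbol, 176 held a broad 3' UTR peak, or 34.6% (30.5 to 38.9), beside 8.95% of all coding genes. Among the 239 with any 3' UTR peak, 73.6% held a broad one, beside 39.8% of all coding genes with a 3' UTR peak. Of their 193 broad peaks, 178 had a q-value under 0.05, beside 1827 of all 1997 broad 3' UTR peaks (91.5%). ZNF500 had the highest fold (15.7, 11.3 to 21.3), followed by ZNF865, ZNF248 (12.4, 8.43 to 17.8) and ZNF597 (12.4, 8.86 to 16.9). ZBTB genes, which join zinc fingers to a BTB domain, had 17 of 41 genes with a broad peak (41.5%, 26.3 to 57.9), led by ZBTB37 (11.4, 7.97 to 15.9) and ZBTB34 (10.1, 7.54 to 13.4) and including ZBTB21 (9.99, 8.32 to 11.9) and ZBTB39 (8.45, 5.99 to 11.6). The lists were chosen with results of these data known, so these shares are descriptions.

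The zinc finger peaks were wider than the other broad peaks, with no higher fold and less depth. Their median width was 1035 bp, against 855 bp for the 1726 broad peaks of other coding genes, and 52.8% against 32.6% were 1000 bp or wider. Median folds were 5.10 and 5.09, median RIP fragments 28 and 53, and median input levels 2.07 and 5.0. In each of the 5 classes of depth a larger share of zinc finger 3' UTR peaks was broad: 39.5% against 13.1% with 2 to 12 fragments, 59.4% against 25.6% with 13 to 25, 71.6% against 30.8% with 26 to 42, 82.5% against 40.5% with 43 to 72, and 86.2% against 54.4% above. Reads that match near-identical copies of these genes may be shared between them, and their part in the widths was not tested.

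**Figure D4:**
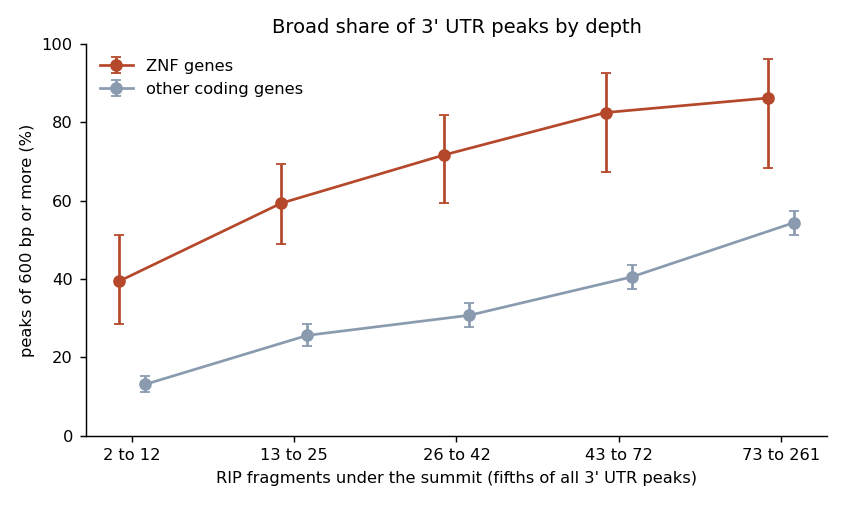
Share of 3' UTR peaks of 600 bp or more (points, with 95% exact binomial intervals) in ZNF genes and in other coding genes, by RIP fragments under the summit. In all 5 classes the ZNF share is the higher, from 39.5% against 13.1% to 86.2% against 54.4%.

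Chromosome 19, where many zinc finger genes are clustered, held 208 broad peaks, the most of any chromosome, and 45.6% of its 456 3' UTR peaks were broad (41.0 to 50.3), beside 34.7% in the whole list. Without the ZNF genes its share was 35.0% (29.6 to 40.6), close to the 33.0% (31.7 to 34.4) of such genes on other chromosomes. ZNF genes had 66.9% broad peaks on chromosome 19 (58.3 to 74.7) and 59.3% elsewhere (51.6 to 66.7), and these intervals overlap.

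Among chromatin regulators 17 of 63 genes held a broad peak (27.0%, 16.6 to 39.7, beside 8.95% of all coding genes). All 17 had a q-value under 0.05, beside 1656 of the 1794 coding genes with a broad peak. Of the 29 with any 3' UTR peak, 58.6% held a broad one, beside 39.8% of all coding genes with a 3' UTR peak. No interval was worked out for such shares, here or in the lists below, so no list is set apart by them. The 17 included the remodeller genes CHD9 (11.2, 9.26 to 13.4), CHD1 (10.2, 8.11 to 12.7) and CHD2 (7.93, 6.37 to 9.78), and the deacetylase gene HDAC4 (7.93, 6.36 to 9.79). Of the factors with SOX, KLF, FOX and HOX symbols, 9 of 121 did (7.44%, 3.46 to 13.7), among them FOXO3 (9.60), FOXP1 (9.24), KLF7 (7.44) and FOXK1 (6.03, over 2076 bp), and so did 2 of 19 nuclear receptors (10.5%, 1.3 to 33.1), NR2F1 and NR2F6 (4.13). In mRNA decay and microRNA silencing the count was 5 of 39 (12.8%, 4.30 to 27.4), with SMG1, TNRC6C (7.29), AGO4 (6.92) and AGO2 (5.27). The intervals of these last 3 lists include 8.95%.

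Genes of the CREB axis, to which the coactivator CRTC2 studied in the series belongs, held a broad peak in 5 of 22 cases (22.7%, 7.82 to 45.4), an interval that includes the 8.95% of all coding genes. Of the 14 with any 3' UTR peak 35.7% held a broad one, beside 39.8% of all coding genes. Besides CREBRF these were CRTC3, a paralog of CRTC2 (1232 bp, 8.75, 6.62 to 11.4), the acetyltransferase coactivators CREBBP (2019 bp, 5.72, 4.86 to 6.68) and EP300 (2159 bp, 3.59, 3.0 to 4.26), and the liver factor CREB3L3 (1075 bp, 1.75, 1.52 to 2.01, over an input level of 74.0). Both CREBBP and EP300 stood among the 60 peaks of 2000 bp or more. CRTC2 itself had no 3' UTR peak. YTHDF2, the reader it is studied with, had 1 of 359 bp, in the narrow class, with a fold of 5.14 (3.75 to 6.88).

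In the m6A machinery, 3 of 11 writer genes held a broad peak. CBLL1, an adaptor of the complex, had 1121 bp at a fold of 4.40 (3.77 to 5.11), the methyltransferase gene METTL16 909 bp at 5.82 (4.57 to 7.31) and the scaffold gene VIRMA 605 bp at 6.17 (4.21 to 8.78). The VIRMA summit lay 23730 bp before the annotated end of the gene. Of 16 readers and erasers YTHDC2, a helicase with a YTH domain, held one, of 634 bp at 4.80 (2.97 to 7.44). These counts are too small to set apart from the 8.95% of all coding genes: their intervals run from 6.02 to 61.0% and from 0.158 to 30.2%.

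Growth signalling lists also held broad peaks. In EGFR, MAPK and PI3K signalling 11 of 40 genes did (27.5%, 14.6 to 43.9, beside 8.95% of all coding genes). All 11 had a q-value under 0.05, beside 1656 of the 1794 coding genes with a broad peak. Of the 22 with any 3' UTR peak, 11 held a broad one, beside 39.8% of all coding genes with a 3' UTR peak. TSC1, a brake on mTOR, had 13.6 (10.5 to 17.5) over 750 bp, the RAS exchange factor gene SOS1 8.55 (7.01 to 10.3) over 873 bp, the receptor gene IGF1R 8.30 (6.69 to 10.2) over 1632 bp and EGFR 8.11 (6.90 to 9.47) over 1418 bp. EGFR held a second broad peak of 619 bp with a fold of 2.46 (1.70 to 3.46) and a narrow one of 315 bp with 3.52 (2.52 to 4.79), so the folds along its 3' UTR were highest in the upstream peak, whose interval overlaps neither of the others.

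In the TGF-beta and BMP pathway 8 of 31 genes held a broad peak (25.8%, 11.9 to 44.6, beside 8.95% of all coding genes): the receptor genes ACVR2A (11.7, 8.32 to 16.1) and BMPR1A (6.67), and the repressor genes SKI (7.36) and TGIF1 (5.89), were the strongest. In the Wnt pathway it was 7 of 34 (20.6%, 8.70 to 37.9), with the receptor gene FZD4 (8.68, in a span shared with PRSS23), BCL9 (7.85), beta-catenin's own gene CTNNB1 (6.06) and APC (5.97). In the Hippo pathway it was 4 of 29 (13.8%, 3.89 to 31.7), namely LATS2 (5.08), AMOTL2 (5.03), NF2 (4.98) and FAT1 (2.80), and in cell cycle and p53 genes 5 of 27 (18.5%, 6.30 to 38.1), with PPM1D (7.51), MDM2 (7.10), MDM4 (6.87) and CDKN2B (5.28). The MDM2 summit lay also in CPM. The intervals of the Wnt, Hippo and cell cycle lists include 8.95%. Of the 18 TGF-beta and BMP genes with any 3' UTR peak, 44.4% held a broad one, beside 39.8% of all coding genes with a 3' UTR peak.

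Ubiquitin ligase adaptors varied. Of 37 KLHL genes, adaptors of cullin 3, 10 held a broad peak (27.0%, 13.8 to 44.1), with KLHL18 at 14.6 (10.8 to 19.5), KLHL36 at 12 (9.37 to 15.2), KLHL22 at 9.80 and KLHL42 at 8.15. F-box genes, which give SCF ligases their targets, had 9 of 62 (14.5%), with FBXO17 (14.9), FBXO42 (14.5), FBXO28 (12.3) and FBXW7 (8.08), a tumour suppressor that marks MYC for destruction. RNF genes had 10 of 84 (11.9%), led by RNF19A (9.02), RNF126 (8.68), RNF169 (8.21) and RNF168 (8.02), TRIM genes 8 of 73 (11%), led by TRIM21 (7.56), TRIM3 (6.89), TRIM24 (6.53) and TRIM38 (6.04), and the USP deubiquitinases 9 of 51 (17.6%), led by USP2 (6.22) and USP53 (5.72). Of these 5 lists, the KLHL list alone has an interval wholly above 8.95%, the share of all coding genes. Of the 16 KLHL genes with any 3' UTR peak, 62.5% held a broad one, beside 39.8% of all coding genes with a 3' UTR peak. That share rests on few genes and was given no interval.

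For lists of transport and membrane genes the intervals include the 8.95% of all coding genes. Solute carriers had 44 of 390 genes with a broad peak (11.3%, 8.32 to 14.9), with SLC26A9 (14.6, 9.98 to 20.8), SLC37A1 (13.4), SLC5A10 (10.2, in a span shared with FAM83G) and the arginine transporter gene SLC7A1 (9.19, 7.66 to 10.9). TMEM genes had 18 of 232 (7.76%, 4.66 to 12), led by TMEM70 and TMEM51 (11.2), Rab GTPases 5 of 63 (7.94%, 2.63 to 17.6), with RAB30 above RAB29 (6.58), RAB7B (3.88) and RAB20 (3.8), and kinesins 7 of 39 (17.9%, 7.54 to 33.5), with KIF13A and KIF16B (10.1). Guidance and adhesion receptors had 12 of 140 (8.57%, 4.51 to 14.5), with CDH6, EPHB2 (10.7), SEMA4B (6.30) and PLXNA1 (5.80).

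A 3' UTR peak of any width was rare in genes of the respiratory chain and the cytosolic ribosome, beside 4506 of all 20037 coding genes. Few genes of the respiratory chain, the ribosomes and the proteasome held a broad peak. None of 78 respiratory chain genes did (upper limit 4.62%, below the 8.95% of all coding genes) and none of 39 proteasome genes (upper limit 9.03%, which includes it), although 2 and 7 of them held narrow 3' UTR peaks. Of 80 cytosolic ribosomal protein genes 2 had any 3' UTR peak, and the sole one with a broad peak (1.25%, 0.0316 to 6.77) was RPL31 (fold 7.44, 6.29 to 8.75). Its summit lay 11872 bp before the end of the gene and also in TBC1D8. Mitochondrial ribosomal proteins had 4 of 77 (5.19%, 1.43 to 12.8, an interval that includes 8.95%), with MRPS25 (6.82, shared with NR2C2), MRPL50 (6.22), MRPS15 (2.44) and MRPS7 (1.39). Gene lists were not matched on expression or on the length of the 3' UTR, and the part of either in these shares was not tested.

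**Figure D5:**
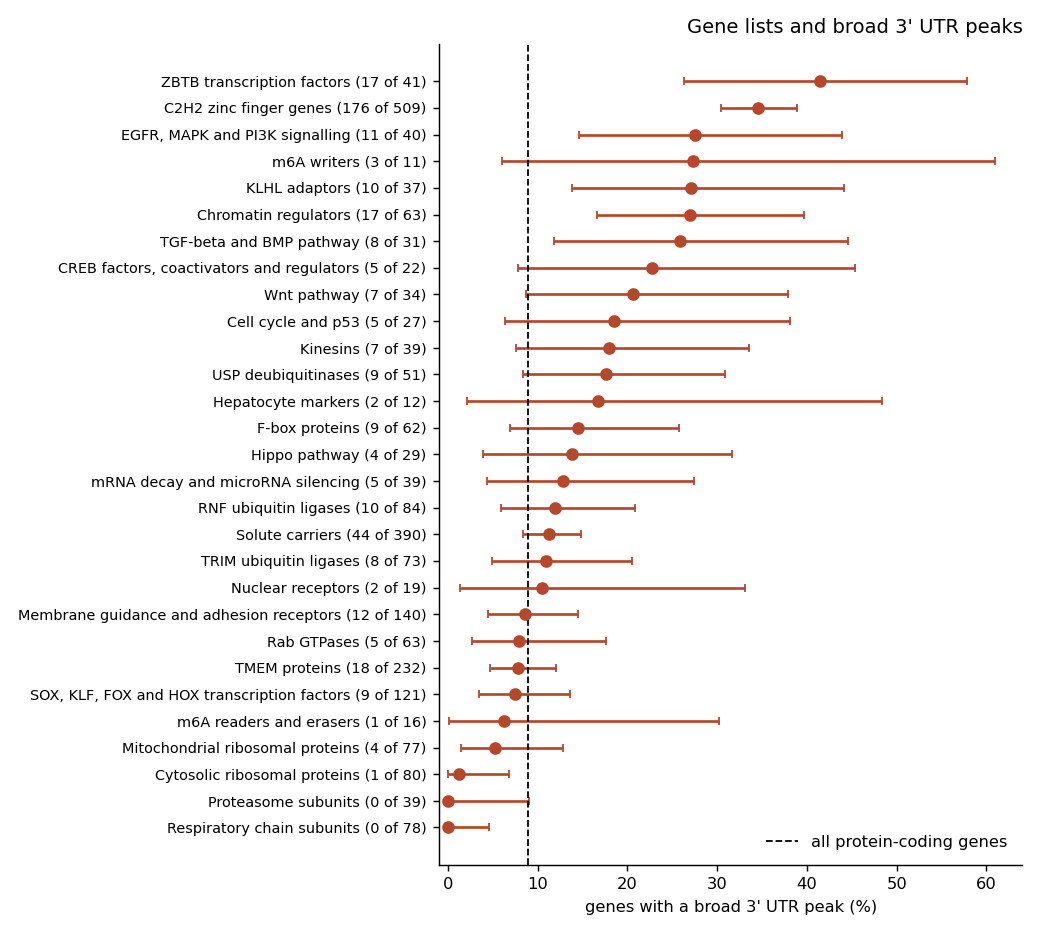
Share of the genes in each list with a broad 3' UTR peak (points, with 95% exact binomial intervals for counting error), ordered by share, with the number of genes beside each name. The dashed line marks 8.95% of all protein-coding genes, and ZBTB and C2H2 zinc finger genes lie highest, at 41.5% and 34.6%.

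Of 12 hepatocyte markers, HNF4A, the master regulator of liver identity, held a broad peak of 1611 bp with a fold of 3.83 (3.09 to 4.70), and the lipoprotein gene APOB held one of 877 bp with 8.53 (5.13 to 13.5). The other 10, the albumin gene ALB included, had no 3' UTR peak. None of 5 immune markers had a 3' UTR peak, and of 7 endothelial and stromal markers PECAM1 alone did, a broad one. A peak list gives no level for a gene without a peak, so the label of the cells was not checked further.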

How the data were processed

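The deposited table lists peaks of 1 m6A-RIP against 1 m6A-Input library, for which the submitters' processing notes name HISAT2, MACS2 and hg38, with versions and settings not given in the sources used here. A linear ratio is what the deposited fold column holds. The p-value and q-value columns lost their headers and were read as −log10 values of the deposited table, since its score is 10 times the first one rounded down for 99.99% of peaks. RIP fragments and input level were solved from fold and −log10 p under a Poisson tail, a pseudocount of 1 and a RIP scaling of 0.642. Whole fragments met the deposited −log10 p within 0.001 for 100% of peaks, and 100% of 1651 simulated peaks were recovered. Total depth is not stated. Fragments carry no molecular identifiers here, so they may repeat a molecule and intervals cover counting error only. A fold's interval is the exact 95% Poisson interval of the RIP fragments at fixed input.

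Gene spans are those of RefSeq on GRCh38.p14, and strands came from RefSeq or the deposited table. Peaks carry no strand, so genes that overlap, on either strand, cannot be told apart. Named genes are the 10 peaks leading by width, by fold and by −log10 p, the 5 genes with most broad peaks (ties by summed width), the 3 peaks on each side of 600 bp, up to 4 genes of highest fold in each list, and CRTC2, YTHDF2, CREBRF, MYC and EGFR. A peak that leads by −log10 p is not reported here. Members and lists were chosen with earlier results of these data known. Python 3.11.15 and scipy 1.17.1 were used. Alternatives to the width, the q-value, the gene assignment and the strand were run.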

Additional observations from a re-analysis of the deposited data

How the results depend on the processing

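There were 21 alternatives, 2 of them chosen after seeing the data. In 13 the result stayed within 1.5 times the count or within its 95% interval, and in 8 it moved further. A turn of direction was checked only for the broad to narrow ratio of median folds, which stayed above 1 in each of its alternatives. A width minimum of 800 bp left 1153 peaks in 1093 genes and a broad to narrow ratio of median folds of 1.42. That ratio fell to 1.23 at a q-value under 0.05 and to 1.12 at a q-value under 1e-5, against 1.36 over all peaks and 1.39 within the middle 50% of input levels. The median number of RIP fragments was 54 at a q-value under 0.05. With the strand of the deposited gene the summit stood at 44.97% of the width. By nearest start, 27.3% of ZNF genes held a broad peak, beside 7.46% of coding genes. The nearest start named 1824 genes, 943 of which were also named by gene body. No paired analysis was possible because each group has 1 library. Depth limits the fold of single peaks: at 12 fragments, as in ZNF81, the interval ran from 1.79 to 5.21.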
